A study of Mus musculus with 12 samples.

Results

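Expression in frontal cortex was compared between mice labelled as conditional Hdac2 knockouts and wild-type mice, all given clozapine. The comparison takes 6 of the 12 libraries of the series, 3 per genotype, and 17286 of the 47069 genes in the annotation were tested. Labelled knockouts carry HDAC2(loxP,loxP) and one copy of CamKIIa-Cre, a transgene whose promoter is active in excitatory neurons of the forebrain, so glia and other cells in the sample keep Hdac2. The wild-type mice are given as wild type only, and whether they carry loxP sites is not stated. All mice were male C57BL/6, both genotypes received clozapine at 10 mg/kg in a design described as chronic, and ages are not given. The other 6 libraries come from vehicle-treated mice of the same genotypes, again 3 each, and serve below as a separate measure of the same genotype difference. Libraries are named by genotype, treatment and number, such as knockout clozapine 3. Nothing in the labels says which libraries came from separate animals, so the p-values speak only of the spread among libraries, which may be technical.

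Hdac2 encodes a class I histone deacetylase, which removes acetyl groups from histone tails and works inside co-repressor complexes such as Sin3, NuRD and CoREST. Removal of acetyl groups is commonly tied to lower transcription, and in forebrain neurons Hdac2 is known as a brake on genes of synaptic plasticity. Clozapine is an atypical antipsychotic that binds the serotonin 5-HT2A receptor, encoded by Htr2a, and dopamine, histamine, muscarinic and adrenergic receptors.

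Total counts lay between 23596197 and 24373123 in the 6 clozapine libraries, and between 23408372 and 28069638 over all 12. Expression is given as CPM, counts per 1000000 counts of a TMM-scaled library. Hdac2 (ENSMUSG00000019777.16, chromosome 10, 36974544 to 37001889, GRCm38) had 73.9, 70.5 and 71.2 CPM in knockout clozapine 3, 4 and 5, against 75.5, 72.4 and 73.5 CPM in wild-type clozapine 2, 3 and 5. The groups overlap, and the log2 difference was -0.04 ± 0.06 (SE, edgeR adjusted p = 0.80). A count over the whole gene says nothing of single deleted exons, so the genotype is written as labelled and each direction below rests on the labels. Replicates differed beyond counting error (chi-square per gene 4.38 to 10.1 over 12 pairs). On the first principal component, which held 20.3% of the variance, all labelled knockout libraries lay below 0 and all wild-type libraries above it.

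Under clozapine 345 genes differed between labelled knockout and wild type, 2.0% of those tested, and most of them were higher. In the labelled knockout 256 genes rose (1.48%) and 89 fell (0.515%), with p from edgeR's quasi-likelihood test and a threshold of 0.05 on the Benjamini-Hochberg adjusted value. Most differences were small. The median log2 difference was 0.43 among the genes that rose and -0.38 among those that fell, and 37 genes passed 1 in either direction while 212 stayed under 0.5. Over all 17286 genes the median was -0.0046 and the middle 90% of the values lay between -0.40 and 0.38. Of the called genes 319 are protein coding, and in 344 the 3 labelled knockout libraries lay wholly on one side of the 3 wild-type libraries. Among all genes tested, 11.8% lay wholly above and 10.7% wholly below in the same way.

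The calls rested unevenly on the libraries. Without knockout clozapine 3 only 59 genes passed, without wild-type clozapine 3 there were 126, without knockout clozapine 5 there were 165, without wild-type clozapine 5 there were 192 and without knockout clozapine 4 there were 197. A core of 56 of the 345 genes passed whichever of the 12 libraries was left out, 49 of them higher and 7 lower, with a median size of 0.63 on the log2 scale. Genes of this core are called stable below, and for other genes left-out libraries that ended the call are given. Other settings that ended a call are given for some genes only. Log2 differences also followed GC content across genes (Spearman rho 0.23, genes are not independent replicates). The median GC content was 55.7% in genes that rose and 46.8% in genes that fell, against 50.2% over all genes. Once each library was corrected for length and GC, rho was 0.00059 and 323 genes passed, 253 of them among the 345. Single genes were refitted with this correction, and for some genes below the adjusted p it gave is stated. Why a call ended with it was not tested.

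**Figure D1:**
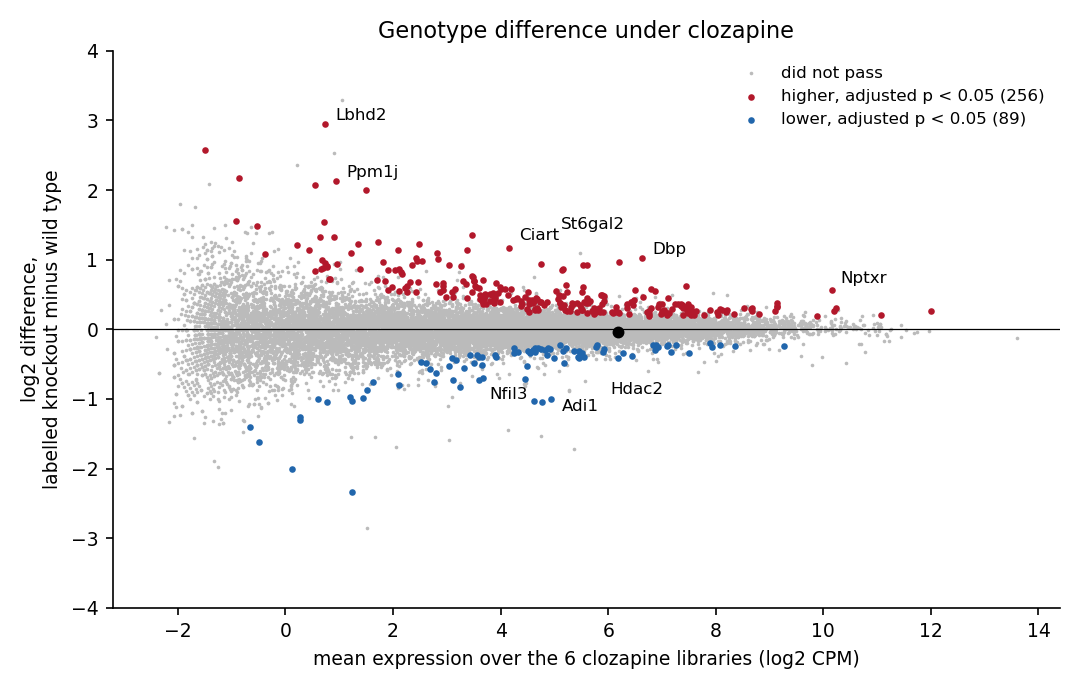
Each point is 1 of 17286 genes, with its mean expression over the 6 clozapine libraries (log2 CPM, horizontal) and its log2 difference, labelled knockout minus wild type (vertical). The 256 genes that rose (red) outnumber the 89 that fell (blue), Lbhd2 has the largest difference of the labelled genes at 2.94, and Hdac2 (black) lies at -0.04.

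The largest differences among called protein-coding genes that averaged 1 CPM or more and whose groups were apart were in genes near silent in wild-type cortex. Lbhd2 (chromosome 12, 111406809 to 111412090) had 2.92, 2.67 and 3.23 CPM in knockout clozapine 3, 4 and 5, against 0.420, 0.422 and 0.293 CPM in wild-type clozapine 2, 3 and 5. Its log2 difference was 2.94 ± 0.21 (SE, adjusted p = 9.0e-07). Ppm1j, a serine/threonine phosphatase gene on chromosome 3 (104781056 to 104786018), had 3.42, 2.96 and 3.02 CPM against 0.588, 0.760 and 0.794 CPM in wild type, a log2 difference of 2.13 ± 0.19 (adjusted p = 2.1e-05). Stag3, which encodes a cohesin subunit of meiotic cells, had 2.43, 2.79 and 1.90 CPM against 0.546, 0.591 and 0.543 CPM in wild type (2.07 ± 0.27, adjusted p = 0.00083). In these 3 genes every labelled knockout library stood at least 3 times above every wild-type one. Tmem40 followed with 2.06, 3.05 and 2.23 CPM against 0.883, 0.718 and 0.919 CPM in wild type (1.53 ± 0.25, adjusted p = 0.0047). All 4 genes are stable, and at about 2 to 3 CPM in the labelled knockout they contribute little to the RNA of the sample.

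Among moderately expressed genes the most certain difference was in St6gal2, which encodes a sialyltransferase of brain glycans. St6gal2 (chromosome 17, 55445382 to 55514581) had 99.5, 92.2 and 101 CPM in knockout clozapine 3, 4 and 5, against 50.3, 46.9 and 52.7 CPM in wild-type clozapine 2, 3 and 5. The log2 difference of 0.97 ± 0.06 had the smallest adjusted p of all genes (1.5e-07). Necab2, a neuronal calcium-binding protein gene, had 50.3, 43.8 and 41.7 CPM against 25.2, 22.7 and 27.1 CPM in wild type (0.86 ± 0.09, adjusted p = 0.00020). Nptxr, the neuronal pentraxin receptor that helps gather AMPA receptors at synapses, had 1470, 1265 and 1370 CPM against 1006, 874 and 886 CPM in wild type (0.57 ± 0.07, adjusted p = 0.00048). It was the most abundant of the stable genes. Epha8, an ephrin receptor gene, had 14.3, 14 and 14.8 CPM against 5.34, 6.75 and 7.52 CPM in wild type (1.13 ± 0.13, adjusted p = 0.00020). Tle3, a Groucho-family co-repressor gene, had 68.2, 70.0 and 69.0 CPM against 45.2, 50.9 and 51.4 CPM in wild type (0.49 ± 0.05, adjusted p = 0.00020). Emilin2, an extracellular matrix gene, and Amz1, a metalloprotease gene, rose by 1.14 and 0.91 on the log2 scale (adjusted p = 0.00050 and 0.00046), and Vstm2l rose by 0.63 (adjusted p = 0.00050). In all 8 genes the 2 groups were apart, and all are stable.

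Several stable genes encode receptors and signalling proteins of neurons. Grin2d, an NMDA receptor subunit gene typical of interneurons, had 47.0, 43.3 and 42.9 CPM in knockout clozapine 3, 4 and 5, against 28, 31.7 and 31.9 CPM in wild-type clozapine 2, 3 and 5 (0.54 ± 0.07, adjusted p = 0.0010). Adcy5, an adenylyl cyclase gene, had 188, 177 and 187 CPM against 149, 143 and 137 CPM in wild type (0.36 ± 0.06, adjusted p = 0.0042). Efna3, an ephrin gene, rose by 0.40 (adjusted p = 0.0041). Plk5, a polo-like kinase gene, had 59.7, 55.7 and 66.7 CPM against 34.6, 26.8 and 34.2 CPM in wild type (0.93 ± 0.13, adjusted p = 0.0043). Hrk, a BH3-only gene of the cell death pathway, had 38.8, 31.1 and 36.4 CPM against 16.1, 20.5 and 18.6 CPM in wild type (0.94 ± 0.14, adjusted p = 0.0047). Of the 56 stable genes, Hrk was the one that missed the threshold under another setting, with an adjusted p of 0.073 when the replicate number was a block. These 5 genes were chosen after their values were seen.

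**Figure D2:**
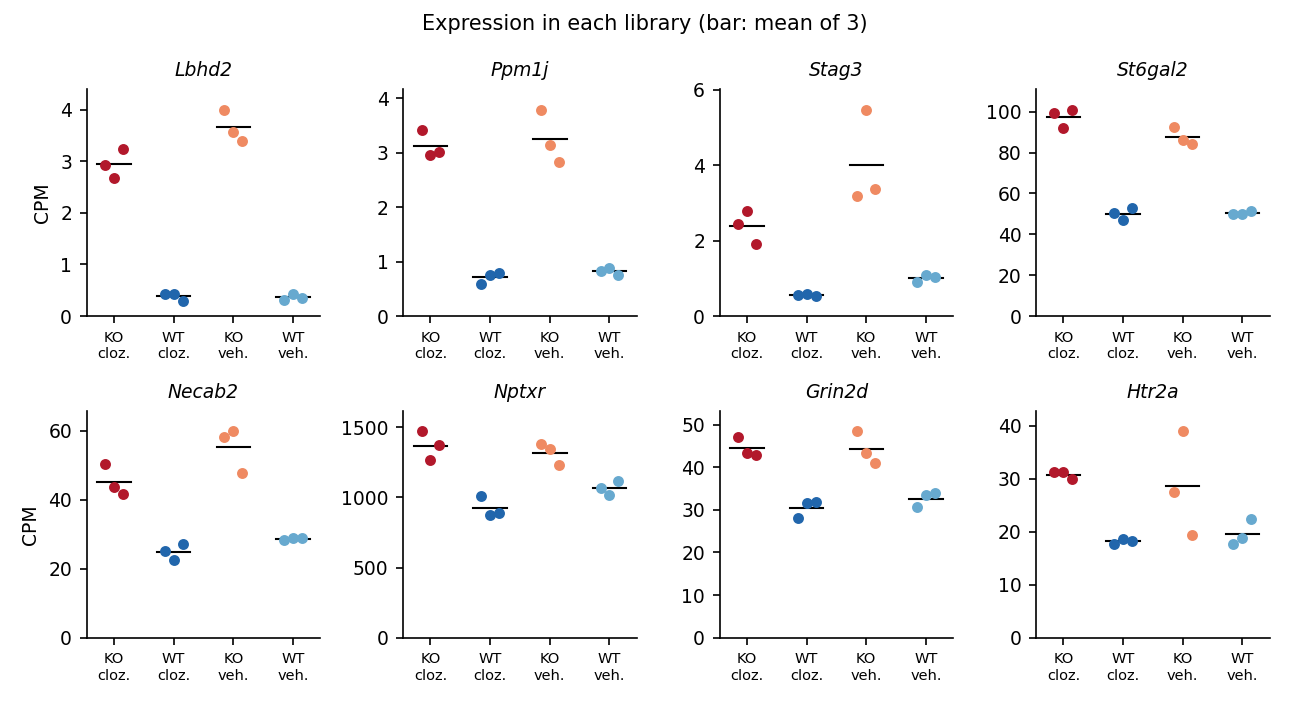
Expression (CPM, each axis from 0) of 8 genes in the 12 libraries, with labelled knockout (KO) left of wild type (WT) for clozapine and then vehicle; points are libraries and bars are means of 3. In all 8 genes the clozapine groups do not overlap, and for Htr2a the 3 knockout vehicle libraries spread from 19.3 to 38.9 CPM.

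The other genes of largest rise were less stable. Igsf1, an immunoglobulin-superfamily gene known from the pituitary, rose by 1.33 on the log2 scale, Aldh3b2, an aldehyde dehydrogenase gene, by 1.33, and Lct, the lactase gene, by 1.25. Hcn4, a pacemaker channel gene, had 4.57, 2.58 and 3.60 CPM in the labelled knockout, against 1.34, 1.82 and 1.42 CPM in wild type (1.23 ± 0.23, adjusted p = 0.012). Gldn, which encodes gliomedin of the nodes of Ranvier, rose by 1.21 and Actn3, a muscle alpha-actinin gene, by 1.14. The groups did not overlap in any of these 6 genes, as the rule that picked them required. Without knockout clozapine 3 all 6 calls ended: Hcn4, Igsf1 and Actn3 then had adjusted p-values of 0.078, 0.072 and 0.072, Aldh3b2 0.091, and Lct and Gldn 0.17. Without wild-type clozapine 3 the calls of Igsf1 (0.090), Actn3 (0.071), Lct (0.15) and Gldn (0.16) ended, without wild-type clozapine 5 those of Aldh3b2 (0.052), Igsf1 (0.096), Actn3 (0.064) and Gldn (0.053), and without knockout clozapine 5 those of Igsf1 (0.087), Lct (0.11) and Gldn (0.16). Lct and Gldn also ended without wild-type clozapine 2 (0.096 and 0.11), without a vehicle library (0.052 to 0.057) and under some other settings. Under vehicle Aldh3b2, Gldn, Lct, Igsf1 and Actn3 passed in the same direction. Their log2 differences there were 1.65, 1.52, 1.07, 0.94 and 0.82 (edgeR adjusted p = 0.0007, 0.0030, 0.028, 0.034 and 0.021). Hcn4 did not pass under vehicle (0.53, adjusted p = 0.16).

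Among the genes that fell, the stable ones with known roles were Adi1, Tle6, Nfil3, Arntl and Chordc1. Adi1, an enzyme gene of methionine salvage on chromosome 12 (28675231 to 28682175), had 19.5, 21.7 and 20.2 CPM in knockout clozapine 3, 4 and 5, against 34.3, 46.1 and 42.3 CPM in wild-type clozapine 2, 3 and 5. Its log2 difference was -0.996 ± 0.14 (adjusted p = 0.0039). Tle6, another Groucho-family gene, had 5.19, 4.74 and 5.09 CPM against 9.12, 7.18 and 9.19 CPM in wild type (-0.76 ± 0.14, adjusted p = 0.0083). Kazald1 had 6.63, 6.47 and 7.24 CPM against 13.8, 9.79 and 12.6 CPM in wild type (-0.83 ± 0.14, adjusted p = 0.0075, but 0.055 without knockout clozapine 3). Sox2ot, a long non-coding RNA that overlaps Sox2, completed the named stable genes with a log2 difference of -0.51. Sox2ot and its overlapping neighbour cannot be told apart where counting took no account of strand, which is not given in the sources used here. Rn7s1 and Rn7s2, copies of 7SL RNA, a part of the signal recognition particle, had log2 differences of -1.27 and -1.31 (adjusted p = 0.018 and 0.017), but they are near-identical copies in libraries made for mRNA, so their values are uncertain.

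For other genes that fell, leaving out any 1 of several libraries ended the call. Cbln4, a secreted organiser of synapses, had 14.3, 20.2 and 18.6 CPM in the labelled knockout, against 39.4, 38.8 and 31.3 CPM in wild type (-1.04 ± 0.21, adjusted p = 0.043). Rxfp1, the relaxin receptor gene, had 5.97, 5.97 and 7.49 CPM against 13.4, 10.6 and 8.36 CPM in wild type (-0.73 ± 0.17, adjusted p = 0.037). Adam8 fell by 0.87, Xaf1 by 0.80 and Myh3, the embryonic myosin gene, by 0.76 on the log2 scale (adjusted p = 0.045, 0.049 and 0.034). Cbln4 and Xaf1 did not pass without any one of the 6 clozapine libraries (0.070 to 0.17 and 0.051 to 0.23), and likewise Myh3 (0.053 to 0.16). Rxfp1 did not pass without knockout clozapine 3 (0.18) or 4 (0.12), nor without wild-type clozapine 2 (0.098) or 3 (0.10). It also missed the threshold with the replicate number as a block (0.15) and with the length and GC correction (0.067). Adam8 did not pass without knockout clozapine 3 (0.22) or 5 (0.16), nor without wild-type clozapine 2 (0.086), 3 (0.093) or 5 (0.13). Rn7s1 and Rn7s2 ended without any of the 3 knockout clozapine libraries (0.052 to 0.075) or wild-type clozapine 3 (0.092 and 0.091). Cbln4, Adam8 and Xaf1 missed the threshold without some vehicle libraries as well (0.051 to 0.066). With the replicate number as a block their edgeR adjusted p-values were 0.18, 0.11 and 0.11. Under vehicle Cbln4 had a log2 difference of -1.56 (edgeR adjusted p = 0.0028). Adam8 and Xaf1 did not pass there, at -0.61 and -0.37 (adjusted p = 0.067 and 0.27). Neither did Rxfp1 and Myh3, at 0.33 and 0.51 (adjusted p = 0.24 and 0.086).

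The circadian clock was the list with the most called members. The molecular clock is a loop in which CLOCK and BMAL1 (gene Arntl) bind E-boxes, with the letters CACGTG, and switch on their own repressors. REV-ERB alpha (gene Nr1d1) and ROR factors act on Arntl and Nfil3 through elements with the core letters AGGTCA. DBP and NFIL3 act in opposite ways on D-boxes, here TTATGNAA. The promoter windows of the 3 called clock genes of smallest p and of Nfil3, added after its values were seen, are shown because these genes differed most and their products act through these motifs. They run from 250 bases before to 50 after the annotated start (RefSeq, GRCm38.p6), 5′ to 3′ on the gene's strand, with matches to the motifs on either strand in capitals. The windows are Ciart chr3:95882179-95882478 (minus strand), Dbp chr7:45704997-45705296 (plus), Nr1d1 chr11:98775328-98775627 (minus) and Nfil3 chr13:52980990-52981289 (minus).
Ciart: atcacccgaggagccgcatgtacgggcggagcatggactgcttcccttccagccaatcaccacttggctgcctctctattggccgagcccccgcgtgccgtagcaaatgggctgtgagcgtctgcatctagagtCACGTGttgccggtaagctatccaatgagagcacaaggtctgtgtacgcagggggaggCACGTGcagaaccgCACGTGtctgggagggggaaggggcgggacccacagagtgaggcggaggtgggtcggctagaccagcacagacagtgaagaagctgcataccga
Dbp: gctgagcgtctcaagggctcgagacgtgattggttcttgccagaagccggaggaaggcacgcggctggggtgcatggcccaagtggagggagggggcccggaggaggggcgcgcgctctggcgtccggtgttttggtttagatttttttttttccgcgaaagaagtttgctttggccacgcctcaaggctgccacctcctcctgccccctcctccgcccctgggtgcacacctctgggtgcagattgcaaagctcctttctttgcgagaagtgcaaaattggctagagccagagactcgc
Nr1d1: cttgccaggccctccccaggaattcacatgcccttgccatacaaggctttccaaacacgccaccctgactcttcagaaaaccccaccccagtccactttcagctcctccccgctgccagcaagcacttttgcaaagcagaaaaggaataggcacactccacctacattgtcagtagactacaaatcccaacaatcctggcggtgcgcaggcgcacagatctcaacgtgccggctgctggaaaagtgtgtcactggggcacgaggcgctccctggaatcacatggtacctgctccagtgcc
Nfil3: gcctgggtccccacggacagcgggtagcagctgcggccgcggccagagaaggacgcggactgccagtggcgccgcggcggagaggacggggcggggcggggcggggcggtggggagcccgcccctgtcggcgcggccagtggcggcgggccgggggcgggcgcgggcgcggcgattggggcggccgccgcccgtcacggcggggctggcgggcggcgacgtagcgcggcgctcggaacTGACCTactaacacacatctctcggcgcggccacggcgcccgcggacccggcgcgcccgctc
The Ciart window holds 3 E-boxes, at -116, -58 and -44 from the start, and the Nfil3 window holds 1 AGGTCA, on the opposite strand, at -12. Over 32817 such windows of all genes, an E-box occurs in 7.15%, the core letters AGGTCA in 16.3% and the D-box in 3.39%. The Dbp and Nr1d1 windows hold none of these letters, which says nothing of elements elsewhere in the genes.

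Of the 22 clock genes tested 4 rose and 2 fell, where 1.48% of all genes rose and 0.515% fell, with a median log2 difference of 0.09 over the list. With the length and GC correction 4 rose and 4 fell, and under vehicle 2 rose and 4 fell, with a median of -0.09. Among all genes 4.01% rose and 5.15% fell under vehicle. Dbp, a clock output factor, had 140, 119 and 137 CPM in knockout clozapine 3, 4 and 5, against 61.5, 63.4 and 69.5 CPM in wild-type clozapine 2, 3 and 5 (1.03 ± 0.07, adjusted p = 5.5e-07). Ciart, a repressor of CLOCK and BMAL1, had 25.2, 21.1 and 27.8 CPM against 11.3, 10.2 and 11.5 CPM in wild type (1.17 ± 0.14, adjusted p = 0.0010). Nr1d1 had 147, 130 and 141 CPM against 94.8, 93.8 and 97.5 CPM in wild type (0.55 ± 0.06, adjusted p = 0.00013). Bhlhe41, another repressor of the loop, had 39.2, 37.1 and 40.05 CPM against 27.9, 29.9 and 32.1 CPM in wild type (0.37 ± 0.07, adjusted p = 0.0093, and 0.056 without knockout clozapine 3). Arntl went the other way, with 28.5, 32.1 and 29.6 CPM against 41.9, 41.0 and 43.7 CPM in wild type (-0.49 ± 0.07, adjusted p = 0.0013). Nfil3 had 9.23, 10.03 and 8.15 CPM against 18, 14.1 and 13.3 CPM in wild type (-0.73 ± 0.12, adjusted p = 0.0062). So 4 genes known as targets of CLOCK and BMAL1 were higher while Arntl and Nfil3 were lower, and in each of the 6 the groups did not overlap.

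The rest of the list did not pass. Per1 had 135, 154 and 135 CPM in the labelled knockout, against 111, 105 and 108 CPM in wild type (adjusted p = 0.37), and Tef, a DBP relative, had a log2 difference of 0.17 (adjusted p = 0.068). Clock and Npas2, which pair with BMAL1, had log2 differences of -0.19 and -0.33 (adjusted p = 0.16 and 0.051). Usp2, a deubiquitinase gene that follows the clock in many tissues and is no member of the list, rose by 0.40 (adjusted p = 0.0010, stable). The hour at which tissue was taken is not given in the labels, so a difference in collection time between the groups was not tested.

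**Figure D3:**
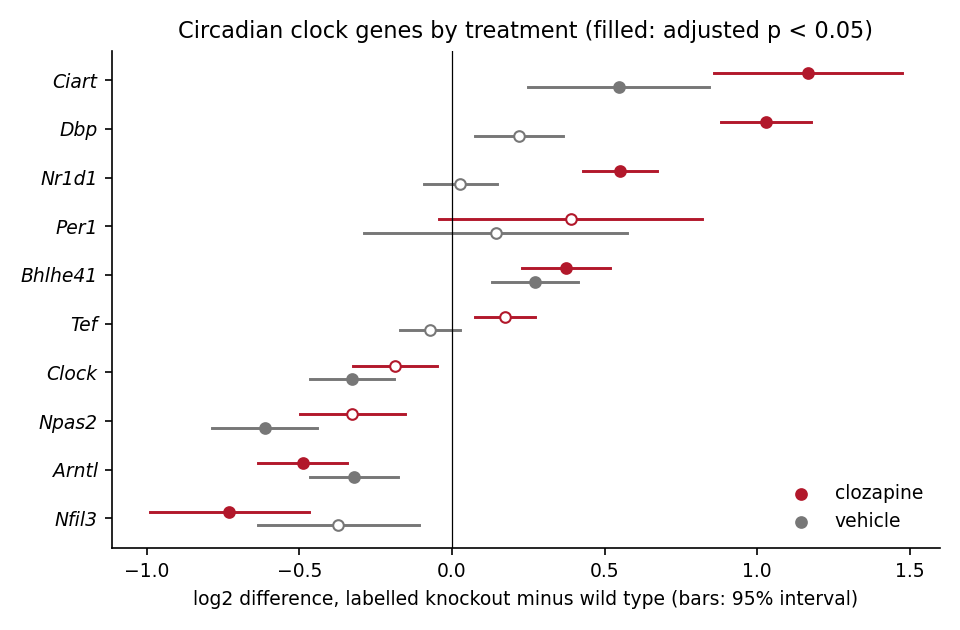
Log2 difference, labelled knockout minus wild type, of 10 clock genes with 95% intervals, under clozapine (red) and under vehicle (grey), filled where the adjusted p was under 0.05. Under clozapine the values run from 1.17 for Ciart to -0.73 for Nfil3, and Dbp and Nr1d1 lie far above their vehicle values of 0.22 and 0.03.

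Genes of the excitatory synapse were mostly a little higher in the labelled knockout. Of 37 tested, 30 lay above 0, with a median of 0.08 against -0.0046 over all genes. In this list 3 rose and 0 fell, where 1.48% of all genes rose and 0.515% fell. Nrxn2, a presynaptic adhesion gene, had 678, 609 and 620 CPM in knockout clozapine 3, 4 and 5, against 501, 489 and 480 CPM in wild-type clozapine 2, 3 and 5 (0.38 ± 0.06, adjusted p = 0.0046, stable). Grik5, a kainate receptor subunit gene, had 281, 275 and 290 CPM against 237, 238 and 237 CPM in wild type (0.25 ± 0.05, adjusted p = 0.0089, but 0.054 without knockout clozapine 3). Camk2a, the kinase gene of excitatory neurons whose promoter drives the Cre transgene, had 4378, 4403 and 4610 CPM against 3751, 3705 and 3687 CPM in wild type. Its log2 difference of 0.26 ± 0.06 had an adjusted p of 0.038, which lay between 0.070 and 0.12 without any one of the 6 clozapine libraries and was 0.065 with the length and GC correction. Under vehicle the same list leaned the other way, with 0 genes higher and 6 lower (where 5.15% of all genes fell) and a median of -0.07. In bulk tissue, more RNA of a gene per cell and more cells of the type that expresses it cannot be told apart.

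Receptor families with members that clozapine binds gave 1 call, counted over whole families. Of 30 monoamine, muscarinic and histamine receptor genes tested, 1 rose and 0 fell, where 1.48% of all genes rose and 0.515% fell. The median log2 difference was 0.09. Hrh3, the histamine H3 receptor gene, had 103, 110 and 111 CPM in the labelled knockout, against 71.9, 72.98 and 74.98 CPM in wild type (0.56 ± 0.10, adjusted p = 0.016). Its call ended without any one of the 6 clozapine libraries (0.050 to 0.076). Htr2a, the gene of the 5-HT2A receptor and chosen after its values were seen, had 31.2, 31.2 and 30.0 CPM against 17.7, 18.6 and 18.3 CPM in wild type. The log2 difference of 0.76 ± 0.21 did not pass in the fit of all 12 libraries (adjusted p = 0.11), which shares 1 spread per gene over the groups, and the 3 knockout vehicle libraries at 27.5, 38.9 and 19.3 CPM lay far apart. In a fit of the 6 clozapine libraries alone its adjusted p was 0.00012, and it was 0.0034 without knockout vehicle 4 and 0.0030 without knockout vehicle 5. None of the 7 metabotropic glutamate receptor genes passed, where 2.0% of all genes did. Grm2, which encodes mGlu2, had 103, 91.9 and 101 CPM against 81.2, 65.8 and 79.8 CPM in wild type (0.38 ± 0.09, adjusted p = 0.054), and its adjusted p lay between 0.018 and 0.043 without knockout vehicle 2, knockout vehicle 5 or wild-type vehicle 4.

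Ion channel and inhibitory genes gave few calls, where 2.0% of all genes were called. Among 15 voltage-gated calcium channel genes 1 rose, Cacnb3, an auxiliary subunit gene with 449, 432 and 455 CPM in the labelled knockout, against 393, 352 and 373 CPM in wild type. Its log2 difference was 0.26 ± 0.05 (adjusted p = 0.012), and it did not pass without knockout clozapine 3 (0.073), knockout clozapine 5 (0.052) or wild-type clozapine 3 (0.072). None of 29 potassium and sodium channel genes passed, with adjusted p-values of 0.15 for Kcnh3 and 0.17 for Scn3b at the low end. None of 17 GABA receptor and transporter genes passed either, and Gabra3 and Gabbr2 came closest with log2 differences of 0.22 and 0.32 (adjusted p = 0.076 and 0.098). Among 16 neuropeptide genes none passed, and Cck had a log2 difference of 0.27 (adjusted p = 0.093). Of 53 clustered protocadherin genes, whose isoforms share exons, 1 fell, Pcdha12, with 8.07, 9.90 and 6.45 CPM against 11.9, 12 and 11.9 CPM in wild type (-0.55 ± 0.14, adjusted p = 0.045). It did not pass without any one of 5 of the 6 clozapine libraries (0.088 to 0.18), the exception being knockout clozapine 4, nor without some vehicle libraries (0.051 to 0.054).

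Hdac2's own family and partners gave 1 call. None of the 4 class I and 7 class II and IV deacetylase genes passed, where 2.0% of all genes did. Hdac1, the closest relative of Hdac2, had 24.4, 22.9 and 20.4 CPM in the labelled knockout, against 18.2, 18.6 and 23.7 CPM in wild type (0.16 ± 0.10, adjusted p = 0.47), and the groups overlap. Of 34 subunits of the HDAC1/2 co-repressor complexes 1 fell and 0 rose, where 0.515% of all genes fell and 1.48% rose. Their median log2 difference was 0.01. The one that fell was Mier1, with 24.3, 23.3 and 25.8 CPM against 28.9, 29.8 and 30.3 CPM in wild type (-0.28 ± 0.07, adjusted p = 0.042), and it did not pass without any one of the 6 clozapine libraries (0.063 to 0.17), knockout vehicle 2 (0.063) or wild-type vehicle 3 (0.054). Mier1 also missed the threshold with the replicate number as a block (0.063) and with the length and GC correction (0.10). None of 12 histone acetyltransferase genes passed, where 2.0% of all genes did.

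Heat shock genes were lower as far as they differed. Of 22 cytosolic heat shock genes 3 fell and 0 rose, where 0.515% of all genes fell and 1.48% rose. Of the 22, 19 lay below 0, with a median log2 difference of -0.13. Chordc1, a co-chaperone gene of HSP90, had 37.0, 38.4 and 37.5 CPM in knockout clozapine 3, 4 and 5, against 48.0, 53.1 and 49.7 CPM in wild-type clozapine 2, 3 and 5 (-0.42 ± 0.06, adjusted p = 0.0010, stable). Dnaja1, a co-chaperone gene of HSP70, had 219, 228 and 225 CPM against 260, 269 and 270 CPM in wild type (-0.25 ± 0.05, adjusted p = 0.011, but 0.077 without knockout clozapine 3). Hspb1, a small heat shock protein gene, had 7.21, 6.18 and 6.78 CPM against 11, 9.12 and 8.86 CPM in wild type (-0.52 ± 0.12, adjusted p = 0.034). It did not pass without any one of the clozapine libraries other than wild-type clozapine 5 (0.072 to 0.12), nor with the replicate number as a block (0.077). Of 26 chaperone and unfolded protein response genes of the endoplasmic reticulum 24 lay below 0, with a median of -0.10, but none passed. Hspa5, the main chaperone there, had 233, 244 and 226 CPM against 265, 265 and 253 CPM in wild type (-0.15 ± 0.05, adjusted p = 0.16). Under vehicle, in the 6 other libraries, 15 of these 26 genes fell, where 5.15% of all genes did, with a median of -0.26. Of the 22 cytosolic heat shock genes 6 fell and 0 rose under vehicle, with a median of -0.14. Chordc1 and Hspb1 passed there at -0.38 and -0.98 (edgeR adjusted p = 0.00088 and 0.00014). Dnaja1 did not (-0.10, adjusted p = 0.20).

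Sterol genes had a median genotype difference near 0 under clozapine. Clozapine is known to raise them in cultured cells, but a comparison of genotypes that all received clozapine cannot show such an effect. Of 28 cholesterol synthesis and SREBP genes 1 rose and 0 fell, where 1.48% of all genes rose and 0.515% fell. The median log2 difference was 0.02. Under vehicle 17 of the 28 rose, where 4.01% of all genes did, with a median of 0.25, and none of the 28 passed the test of the difference between the treatments. Scd1, a fatty acid desaturase gene outside that list and chosen after its values were seen, fell to 136, 141 and 144 CPM in the labelled knockout, against 168, 165 and 162 CPM in wild type (-0.23 ± 0.05, adjusted p = 0.015). Scd1 did not pass without knockout clozapine 3 (0.11), knockout clozapine 4 (0.051) or wild-type clozapine 3 (0.057).

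Under clozapine activity-induced genes lay mostly below 0 without passing. Of 32 tested, 23 lay below 0 with a median of -0.17, and 0 passed in either direction, where 2.0% of all genes did. Fos had 21.5, 15.2 and 11.1 CPM in the labelled knockout, against 27.7, 25.3 and 29.3 CPM in wild type, and Fosl2 had 31.1, 24.5 and 26.1 CPM against 54.2, 58.1 and 37.7 CPM in wild type. The groups did not overlap in either gene (adjusted p = 0.093 and 0.071), and 10.7% of all genes lay wholly below in the same way. Under vehicle 8 of the 32 fell and 1 rose, where 5.15% and 4.01% of all genes did, with a median of -0.36. Fosl2 passed there at -1.04 (edgeR adjusted p = 0.016), and Fos did not (-0.57, adjusted p = 0.12). Among 18 glucocorticoid-responsive and 14 NF-kB pathway genes none passed under clozapine, where 2.0% of all genes did. None of 13 mitochondrially encoded, 76 nuclear respiratory chain, 77 ribosomal protein and 37 proteasome genes passed either. Their medians lay at -0.09, -0.0030, 0.02 and 0.0040.

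Markers of cell types were those of cortex, with neuron and astrocyte markers high and choroid plexus markers low. Excitatory neuron markers summed to 9778 to 10150 CPM in the labelled knockout, against 8790 to 8982 CPM in wild type, and Camk2a made up much of that sum. Of the 8 markers 4 lay above 0 and 4 below, with a median log2 difference of 0.01. Under vehicle they summed to 8604 to 9422 CPM in the labelled knockout and 9251 to 10130 CPM in wild type. Interneuron markers summed to 1277 to 1294 CPM against 1226 to 1258 CPM in wild type, and 3 hippocampal granule neuron markers to 34.9 to 42.5 CPM against 30.3 to 31.4 CPM in wild type. For the other 15 of 18 marker lists the summed levels of the genotypes overlapped. Among all single genes tested, 11.8% lay wholly above and 10.7% wholly below. Choroid plexus markers stayed under 10 CPM in sum in all 6 libraries, at 5.59 to 9.56 CPM in the labelled knockout and 4.89 to 5.61 CPM in wild type. What part such differences have in the single genes was not tested.

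Oligodendrocyte markers leaned to the lower side in the labelled knockout. All 11 were detected and all 11 lay below 0, with a median log2 difference of -0.25, and they summed to 1443 to 1999 CPM in the labelled knockout, against 1860 to 2308 CPM in wild type. The sums overlap, and 1 marker passed, where 2.0% of all genes did. Ermn, a cytoskeletal protein of myelin-forming cells, had 13.4, 19.1 and 17.3 CPM in knockout clozapine 3, 4 and 5, against 25.7, 31.5 and 24.2 CPM in wild-type clozapine 2, 3 and 5 (-0.71 ± 0.14, adjusted p = 0.021). It did not pass without knockout clozapine 3 (0.072), knockout clozapine 5 (0.061) or wild-type clozapine 3 (0.072), nor with the replicate number as a block (0.14). Under vehicle the same 11 markers had a median of -0.0080.

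Layer markers gave 1 call, where 2.0% of all genes were called. Deep-layer neuron markers had a median log2 difference of -0.27 and upper-layer markers one of 0.06, against 0.31 and -0.18 under vehicle. Under vehicle 2 deep-layer markers rose and 3 upper-layer markers fell, where 4.01% of all genes rose and 5.15% fell. Under clozapine Cux2, an upper-layer transcription factor gene, rose, with 197, 190 and 195 CPM in the labelled knockout, against 169, 152 and 155 CPM in wild type (0.29 ± 0.06, adjusted p = 0.028). None of 11 deep-layer markers passed, and Rprm had 22.7, 28.5 and 30.4 CPM against 45.9, 42.0 and 35.2 CPM in wild type (adjusted p = 0.12). The call of Cux2 ended without knockout clozapine 3 (0.13), 4 (0.060) or 5 (0.078), without wild-type clozapine 3 (0.12) or 5 (0.094), and with the length and GC correction (0.082). Eln, an elastin gene in the meningeal list, rose by 0.45 (adjusted p = 0.040) and ended without the same 5 libraries (0.073 to 0.17) and with the correction (0.055). Under vehicle both passed in the opposite direction, at -0.32 for Cux2 (adjusted p = 0.0056) and -0.59 for Eln (0.0029).

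**Figure D4:**
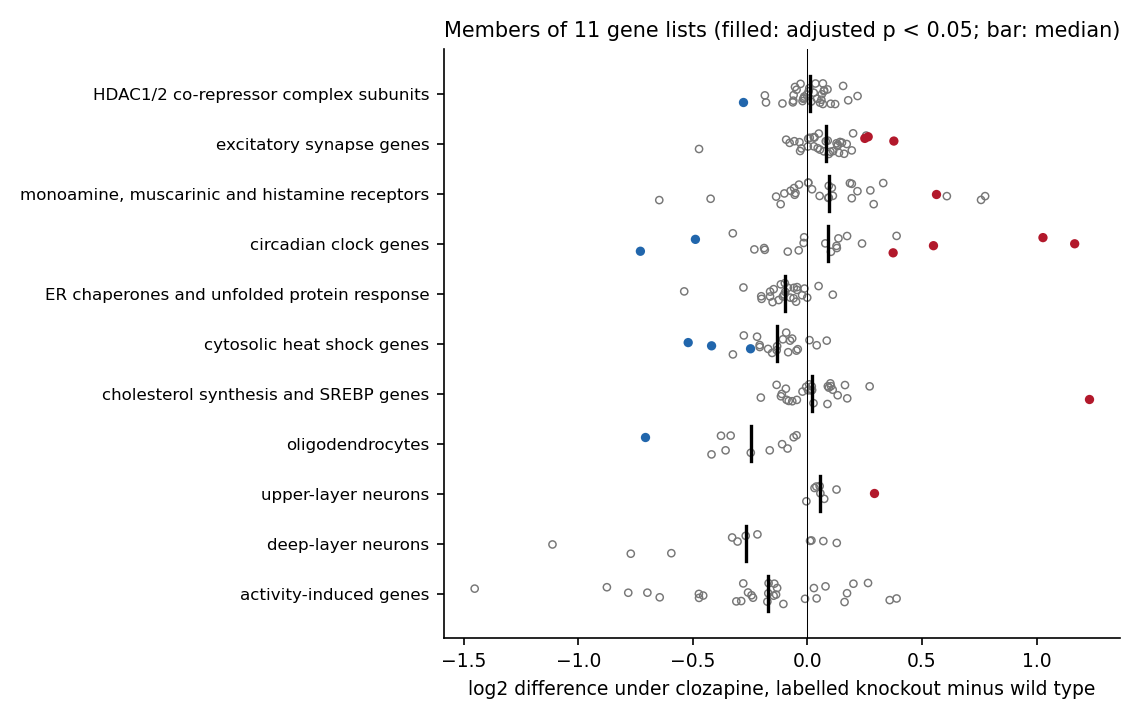
Log2 difference under clozapine, labelled knockout minus wild type, of the members of 11 gene lists; filled points passed (red higher, blue lower), open points did not, and bars mark medians. Clock genes hold 4 red and 2 blue points, heat shock genes 3 blue ones, and all 11 oligodendrocyte markers lie below 0.

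Many of the same genes differed between the genotypes under vehicle. In the 6 vehicle libraries, which enter no clozapine group but share the estimate of each gene's spread in the fit of 12, 1584 genes passed (9.16%), 693 higher (4.01%) and 891 lower (5.15%). Of the 345 genes called under clozapine 141 passed in the same direction under vehicle, which is 40.9% of the 345 and 8.90% of the 1584. Another 8 passed in the opposite direction and 196 did not pass. Of the 345, 286 (82.9%) had the same sign in both treatments, against 59.3% of all genes. The genes that rose under clozapine had a median log2 difference of 0.24 under vehicle, and those that fell had one of -0.15.

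Protein-coding genes of largest rise had the same direction under vehicle, and some other genes did not. Lbhd2 had 4.0, 3.57 and 3.39 CPM in knockout vehicle 2, 4 and 5, against 0.305, 0.423 and 0.357 CPM in wild-type vehicle 1, 3 and 4, a log2 difference of 3.31 (adjusted p = 2.7e-07). Ppm1j, Stag3 and Tmem40 had vehicle log2 differences of 1.98, 1.98 and 1.41. St6gal2 had 92.4, 86.1 and 84.0 CPM against 50.1, 50.01 and 51.3 CPM in wild type, a log2 difference of 0.79 under vehicle beside 0.97 under clozapine. Necab2, Plk5, Hrk and Grin2d had 0.95, 1.06, 0.71 and 0.44. Opposite signs were found in Rn7s2 and Rn7s1, at 1.48 and 1.53 under vehicle (adjusted p = 0.0013 and 0.00088) beside -1.31 and -1.27 under clozapine. The pseudogene 3110053B16Rik, chosen after its values were seen, had -0.68 under vehicle (adjusted p = 0.015) and 1.35 under clozapine, and Adi1 had 0.32 (adjusted p = 0.17) and -0.996. Of the 56 stable genes 33 passed in the same direction under vehicle, 2 in the opposite one and 21 did not pass.

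The genotype difference itself changed with treatment for 113 genes (0.654%), 91 with a higher value under clozapine (0.526%) and 22 with a lower one (0.127%), and 30 of the 345 called genes were among them. For Dbp the genotype difference was 1.03 under clozapine and 0.22 under vehicle, where labelled knockout libraries had 112, 117 and 120 CPM against 107, 93.4 and 98.6 CPM in wild type (interaction 0.81 ± 0.10, adjusted p = 0.0019). For Nr1d1 it was 0.55 under clozapine and 0.03 under vehicle (interaction 0.52 ± 0.08, adjusted p = 0.010). The vehicle libraries of Nr1d1 held 135, 151 and 139 CPM in the labelled knockout and 136, 146 and 135 CPM in wild type, so the wild-type clozapine libraries at 93.8 to 97.5 CPM stood below the other 9. Ciart, Arntl, Nfil3 and Bhlhe41 did not pass that test (adjusted p = 0.19, 0.48, 0.39 and 0.71). Both the Dbp and the Nr1d1 interaction passed whichever library was left out, but with the replicate number as a block Nr1d1 had an adjusted p of 0.10.

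Of the 56 stable genes 13 showed such a difference. Beside Dbp and Nr1d1 they were Epha8, Tle3, Sh2b2, Wnt4, Fibcd1, Olfm2, Hpcal1 and Adi1, and the non-coding genes or pseudogenes 3110053B16Rik, Gm9866 and Gm6472, chosen after their values were seen. Tle3 had 61.0, 64.0 and 61.3 CPM in knockout vehicle 2, 4 and 5, against 61.7, 59.9 and 59.8 CPM in wild-type vehicle 1, 3 and 4, a log2 difference of 0.04 beside 0.49 under clozapine (interaction adjusted p = 0.018). Wnt4, a secreted signalling protein gene, had 31.8, 34.8 and 38.1 CPM against 37.2, 36.6 and 35.4 CPM in wild type under vehicle, while under clozapine it had 38.2, 38.0 and 39.7 CPM against 27.9, 23.3 and 27.7 CPM in wild type (interaction adjusted p = 0.022). Olfm2, a secreted glycoprotein gene, had a log2 difference of 0.37 under clozapine and 0.0040 under vehicle (interaction adjusted p = 0.027). Hpcal1, a neuronal calcium sensor gene, rose in both treatments, by 0.64 under clozapine and by 1.23 under vehicle (interaction adjusted p = 0.036). The interaction calls of the first 8 each ended without at least 1 of the 12 libraries, at adjusted p-values of up to 0.058 for Wnt4, 0.056 for Tle3, 0.060 for Sh2b2, 0.061 for Adi1, 0.072 for Fibcd1, 0.078 for Olfm2, 0.081 for Epha8 and 0.093 for Hpcal1. For the 175 called genes that passed neither under vehicle nor in the interaction, a difference between the treatments was not shown.

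**Figure D5:**
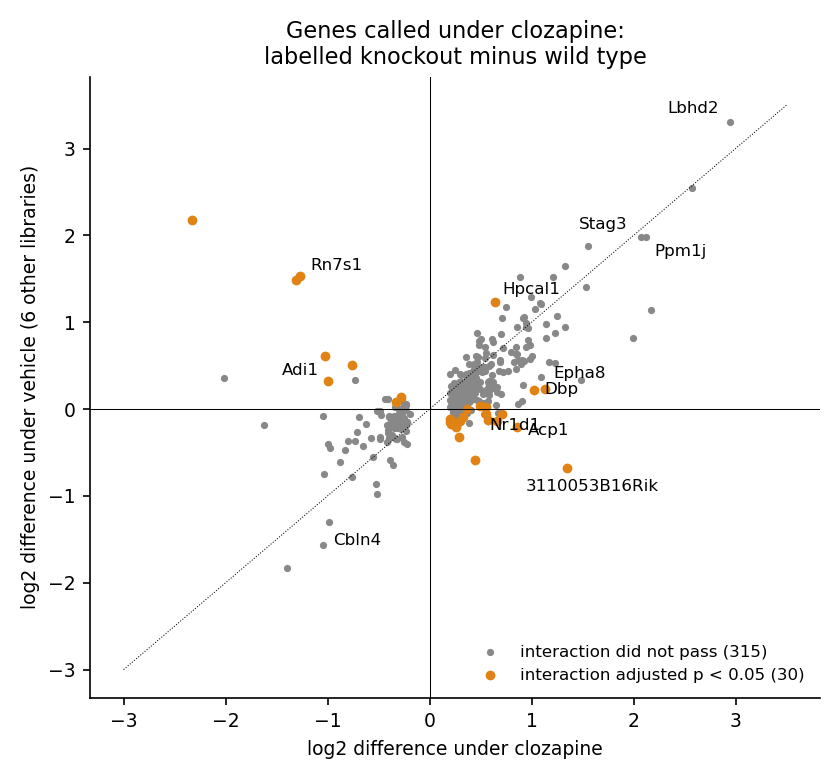
Log2 difference between labelled knockout and wild type under clozapine (horizontal) and under vehicle in 6 other libraries (vertical) for the 345 genes called under clozapine; the dotted line marks equal values. Of these 286 have the same sign in both, Lbhd2, Ppm1j and Stag3 lie far out near the line, and the 30 genes in orange passed the test of the difference between treatments.

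The neighbourhood of Hdac2 held no called gene: of 44 genes tested within 5 Mb of it, 0 were called where 2.0% of all genes were. Of the 44, 8 had an unadjusted p under 0.05, where 15.9% of all genes did. Under vehicle 1 of the 44 passed, where 9.16% of all genes did. On chromosome 12, between 14146830 and 31329644, called genes lay densely, with 9 of 64 genes tested (14.1%), but these bounds were drawn after the values were seen. Across the genome 15 stretches held 3 or more genes that were called in the same direction with neighbours within 1 Mb, 50 genes in all. Of the 15, 14 were of genes that rose, where 74.2% of all calls rose. How many such stretches scattered calls would give was not tested. The longest, on chromosome 2 (179442431 to 181459426), held Cdh4, Hrh3, B230312C02Rik, Tcfl5 and Zbtb46, which rose by 0.41, 0.56, 0.88, 1.55 and 0.36 on the log2 scale. On chromosome 4 (136284683 to 137299726) Zfp46, Epha8 and Wnt4 rose. These calls were weak: without knockout clozapine 3 or wild-type clozapine 3 those of Cdh4, Hrh3, B230312C02Rik, Tcfl5, Zbtb46 and Zfp46 ended (0.056 to 0.24), and those of Epha8 and Wnt4 were stable. Because 46 genes were tested inside the first and 12 inside the second, most neighbours of the called genes did not pass.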

How the data were processed

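RNA sequencing counts per gene were compared between labelled knockout and wild type under clozapine. STAR 2.5.1b, GRCm38 and featureCounts are named in the submitters' processing notes. The authors deposited estimated counts, 1 value for each gene and library, of which 7.385% are not whole numbers; how shared reads were split and whether strand was used is not given in the sources used here. Whole counts had been assumed in the plan, so the values were rounded. Identifiers were named from GENCODE release 21 (46574 of 47069). The filterByExpr step kept 17286 genes and 99.929% of counts.

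All 12 libraries were fitted in edgeR 4.0.16 (R 4.3.3; TMM scaling, robust quasi-likelihood test, 4 groups), with Benjamini-Hochberg adjustment over all tested genes. The 3 contrasts were labelled knockout minus wild type under clozapine, the same under vehicle, and their difference (interaction). The test was checked on simulated counts.

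Named genes are the 12 of largest rise and fall (called, mean of at least 1 CPM, no overlap, no predicted genes or pseudogenes), up to 4 called members of each of 41 lists or else the 2 of smallest p, and genes said to be chosen after their values were seen, to which the stable genes and those of smallest p belong. A few genes that the rule names are not reported here. Members and lists were chosen with earlier results of these data known. The spread among replicate libraries sets the precision. Alternatives were DESeq2 1.42.0, limma-voom (limma 3.58.1), RLE factors, 2 other filters, a replicate block, 1 surrogate variable (sva 3.50.0), a threshold of 0.10, a fit of 2 groups, a length and GC correction, unrounded counts and leaving out each library.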

Additional observations from a re-analysis of the deposited data

Results flagged for a closer look

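For 28 of the named genes the genotype difference under clozapine differed from that under vehicle by the interaction test (edgeR adjusted p under 0.05), and 0.654% of all genes did so. The values below are the clozapine difference minus the vehicle difference on the log2 scale. Among clock genes it was 0.808 for Dbp and 0.523 for Nr1d1. It was 0.592 for Hspa5 (adjusted p = 0.0019), where knockout vehicle libraries held 227, 218 and 220 CPM against 394, 374 and 345 CPM in wild-type vehicle, beside 233, 244 and 226 CPM in knockout clozapine against 265, 265 and 253 CPM in wild type. The interaction was 0.609 for Cux2 (0.0080), 1.04 for Eln (0.0068), -2.79 for Rn7s2 and -2.8 for Rn7s1 (0.0019 each). These 7 passed whichever of the 12 libraries was left out, but Nr1d1 did not pass with the replicate block (0.10), nor Cux2 with the length and GC correction (0.060).

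The other 21 each lost the call without at least 1 library. Positive values were 1.07 for Acp1, 0.898 for Epha8, 0.8 for Sh2b2, 0.769 for Fibcd1, 0.613 for Wnt4, 0.537 for Odc1, 0.468 for Lingo3, 0.452 for Tle3, 0.435 for Pak6, 0.426 for Fam84a and 0.423 for Lingo1. Smaller positive values were 0.366 for Olfm2, 0.356 for Dab2ip, 0.344 for Dusp7 and 0.31 for Ski. Negative values were -1.38 for Rprm, -1.32 for Adi1, -1.26 for Myh3, -0.597 for Hpcal1, -0.422 for Gatm, which encodes the first enzyme of creatine synthesis, and -0.407 for Zranb2, a splicing factor gene. Their adjusted p lay between 0.015 and 0.048, and the largest without 1 library was between 0.056 for Tle3 and 0.14 for Lingo1. With the replicate number as a block 12 genes passed the interaction test over all genes, and with the length and GC correction 52.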

How the results depend on the processing

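Under clozapine the count of 345 became 545 with DESeq2, 566 with no filter beyond 1 count and 697 at a threshold of 0.10, while voom, RLE factors, a filter at 1 CPM, a surrogate variable, unrounded counts, 2 groups alone and the length and GC correction gave 311 to 363. The share of calls that were higher was 74.2%, and 62.8% at the threshold of 0.10. Leaving out 1 library gave 59 to 425. Under vehicle the count of 1584 became 817 with a surrogate variable, 2480 at the threshold of 0.10 and 617 to 1722 without 1 library. The interaction count of 113 became 368 with DESeq2, 302 with no filter, 25 with a surrogate variable, 258 at 0.10, 52 with the correction (61.5% higher, against 80.5%) and 13 to 181 without 1 library. Replicate numbers are shared by some groups. Over all genes same-numbered libraries did not deviate together (r of -0.0803 to 0.123). A value over all genes cannot show whether the numbers pair libraries for part of the genes. With the replicate block 328 genes passed under clozapine (62.8% higher, 220 of them among the 345), 385 under vehicle and 12 in the interaction. Hdac2 had 0.02764 with the correction, and -0.05912 to -0.01829 without 1 library, against -0.03854, so its sign changed with the correction, and it passed in none of these. Of 159 other named genes, 3241 values kept their side of the threshold, 310 lost the call, 99 gained one and 1 changed sign: Alas2, which did not pass, had -0.8058 to 0.01936 without 1 library. The cause of these shifts was not tested, and the spread over 3 libraries limits what can be detected.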

Other observations

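Some genes of RNA splicing fell in the labelled knockout under clozapine, and most did not pass. The families were chosen after their values were seen and counted whole. Of 20 hnRNP genes 4 fell and 0 rose, with a median log2 difference of -0.12, and of 13 SR and Tra2 splicing factor genes 3 fell and 0 rose, with a median of -0.27, where 0.515% of all genes fell. Hnrnpu, which coats nascent RNA, had 55.5, 63.8 and 67.6 CPM in knockout clozapine 3, 4 and 5, against 79.9, 84.8 and 83.2 CPM in wild-type clozapine 2, 3 and 5 (-0.41 ± 0.08, adjusted p = 0.018). Srsf6 had 68.8, 80.0 and 76.7 CPM against 97.9, 95.4 and 100 CPM in wild type (-0.38 ± 0.08, adjusted p = 0.016). Hnrnpm, Hnrnph1, Hnrnph3, Srsf7 and Tra2a fell by 0.28 to 0.38, and the helicase genes Ddx5 and Ddx17 by 0.24 and 0.22. Without knockout clozapine 3 the calls of all 9 genes ended (0.10 to 0.21). Without wild-type clozapine 5 all but Ddx5 ended (0.065 to 0.15), without wild-type clozapine 3 all but Hnrnph3 and Srsf6 (0.059 to 0.11), and without knockout clozapine 5 all but Hnrnpu and Ddx5 (0.052 to 0.15). Without knockout clozapine 4 the calls of Hnrnpm, Hnrnph1, Hnrnph3, Srsf7 and Ddx17 ended (0.052 to 0.082), and without wild-type clozapine 2 those of Hnrnph3 (0.11) and Tra2a (0.062). Tra2a also ended without knockout vehicle 4 (0.051) or wild-type vehicle 1 (0.056). The families have a median GC content of 44.8% and 44%, against 50.2% over all genes, and with the length and GC correction 3 hnRNP and 2 SR or Tra2 genes passed. Under vehicle 1 hnRNP gene fell and 2 rose, and 1 SR or Tra2 gene fell, where 5.15% of all genes fell and 4.01% rose.

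A few called genes are best known from striated muscle, and no list of such genes was counted. Myh7, a slow myosin heavy chain gene, had 13.5, 11.3 and 12.9 CPM in the labelled knockout, against 7.65, 8.40 and 7.86 CPM in wild type (0.65 ± 0.12, adjusted p = 0.011). Tnnc1, a troponin C gene, had 9.60, 9.14 and 9.97 CPM against 4.88, 4.64 and 3.97 CPM in wild type (1.09 ± 0.22, adjusted p = 0.031). Tcap and Pgam2 rose by 0.92 and 0.85, while Myh3 fell by 0.76. Actn3 and Jsrp1 rose by 1.14 and 1.01. Without knockout clozapine 3 the calls of Myh7 (0.072), Tnnc1 (0.13), Tcap (0.13), Pgam2 (0.072), Actn3 (0.072) and Myh3 (0.16) ended, and that of Jsrp1 did not. Tnnc1 and Myh3 also ended without any other of the 6 clozapine libraries (0.053 to 0.12), Tcap without knockout clozapine 5 (0.10) or wild-type clozapine 5 (0.080), Pgam2 without wild-type clozapine 3 (0.072), and Actn3 without wild-type clozapine 3 (0.071) or 5 (0.064). These genes were chosen after their values were seen.

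Called genes gathered on part of chromosome 12, between 14146830 and 31329644. Of 64 genes tested there 9 were called under clozapine (14.1%, against 2.0% of all genes), 15 under vehicle (23.4%, against 9.16%) and 11 in the interaction. Under clozapine 8 rose, among them Hpcal1 and Acp1, and Adi1 fell. The bounds were drawn after the values were seen, so the share is a description. Acp1 had 45.3, 46.9 and 46.3 CPM in the labelled knockout, against 31.8, 21.6 and 22.8 CPM in wild type (0.86 ± 0.14, adjusted p = 0.012), but 36.5, 35 and 47.8 CPM against 47.1, 45.0 and 45.9 CPM in wild type under vehicle. Its clozapine call ended without knockout clozapine 3 (0.059) or wild-type clozapine 5 (0.051), and with the replicate number as a block (0.063).

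Tpgs2, chosen after its values were seen, had 25.995, 26.1 and 29.1 CPM in the labelled knockout under clozapine, against 51.9, 49.9 and 48.3 CPM in wild type. It did not pass in the fit of 12 libraries (adjusted p = 0.63), in which wild-type vehicle 1 held 1.26 CPM and the other 5 vehicle libraries 49.2 to 54.0 CPM. Without wild-type vehicle 1 its log2 difference was -0.89 with an adjusted p of 2.1e-06.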
